A study of Saccharomyces cerevisiae with 4 samples.

Results

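The 44 genes described here encode the anaphase-promoting complex (APC) and its regulators, the spindle checkpoint, and parts of the kinetochore and spindle of budding yeast. They were chosen by name for their known function, at a time when earlier results of these data were known, and all 44 were found among the 6218 open reading frames (ORFs) on the array. By role they are 13 APC subunits, 3 APC activators, 5 regulators of anaphase and of exit from division, 4 genes of the monopolin complex or its partner SPO13, 5 checkpoint genes, the Aurora kinase pair of 2 genes, 4 motors, 4 tubulins, 1 midzone gene and 3 kinetochore genes.

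The study asked how sporulating cells respond when rich medium is restored. The sample RNA came from a diploid of the SK1 background (strain GF18) in which NDT80, for the activator of middle sporulation genes, is driven by the promoter of 1 of its own targets, SPS4. The 4 groups, with 1 array each, were cells after 5.5 h in acetate sporulation medium (SPM) and cells of the same culture at 0, 20 and 40 min after centrifugation and resuspension in glucose-rich medium (YPD). The same reference RNA, of the wild-type SK1 diploid NKY1551 growing in acetate medium (YPA), was hybridized on every array. Sample was labeled with Cy5 and reference with Cy3, and a level is given as log2 Cy5/Cy3. Every sample thus came from a strain with a foreign promoter at NDT80. The text of the paper does not state whether both copies of the diploid carried it, and its strain name also includes an HA tag. The labels describe GF18 as a strain, with no count of independent isolates.

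The ubiquitin ligase APC opens anaphase. Its activator Cdc20 directs it to securin, and once securin is destroyed the protease separase cuts the cohesin that holds sister chromatids together. The spindle checkpoint restrains Cdc20 until kinetochores are attached to microtubules. In meiosis the complex is used in both divisions, a further activator, Ama1, acts in sporulation alone, and monopolin makes sister kinetochores attach to the same pole in the first division.

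Each gene was printed in 2 adjacent spots. Each group had 1 array, so no test could be made and no p-value is given, and ± denotes the SD of a gene's 2 spots. This SD leaves out all variation between hybridizations and cultures. A gene was counted as higher or lower when each of its spots was past 2-fold the same way. A gene was above background in a channel when 1 of its spots or both lay over the 95th percentile of that channel's buffer-only spots. A comparison with only one side above background is given as a lower bound ("at least"), from normalized channel intensities. In medians with sides below background at their bound, a gene without a valid bound entered as no change. No SPM array was made after 5.5 h, so the effects of the medium, of the handling and of the time that passed cannot be told apart. Total RNA of a culture was measured, so fewer cells at a stage and less RNA per cell cannot be told apart either.

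Gene spots had a median intensity, less background, of 921 to 2039 in Cy5 and 1137 to 1782 in Cy3, and the correlation of the paired spots over genes was r = 0.975 to 0.982. Between 51.9% and 55.8% of genes were above background in Cy5. The labeled stage was checked with marker genes. NDT80 and SPS4 were at least 50.8-fold and 69.8-fold above the reference at 5.5 h in SPM. NDT80 was driven by the SPS4 promoter, so this pair does not give separate evidence. The middle sporulation genes SPR3 and SSP1 and the entry gene IME2 were at least 64.9-fold, 68.9-fold and 35.4-fold above the reference. SMK1 had a log2 ratio of 4.97. IME1, for the regulator of entry, had -0.41 in SPM, then -2.77, -5.14 and -4.54 in YPD. All these markers were above background in Cy5 on every array. Among the 44 genes, 39, 37, 33 and 26 were above background in Cy5 in SPM and then 0, 20 and 40 min into YPD. The buffer threshold of the Cy5 channel was itself highest on the 40 min array, 2034 against 862 to 1316 on the others, and its part in the last of these counts was not tested. In all, 26 genes were above background in Cy5 on all 4 arrays, 13 on 1 to 3 arrays, and 5 (ESP1, BUB1, SLI15, TUB4 and DAM1) on none.

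**Figure D1:**
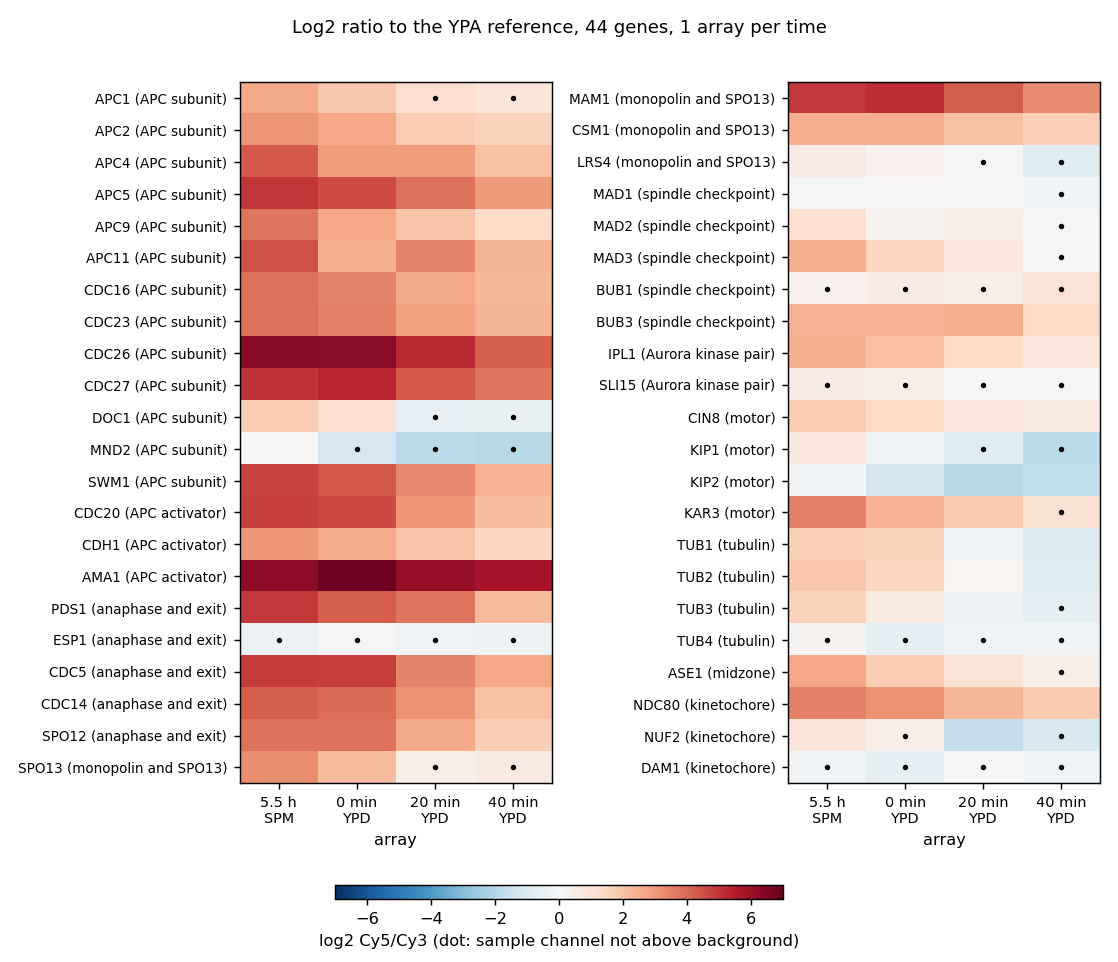
Log2 Cy5/Cy3 of the 44 genes (rows, with their role) on the 4 arrays (columns, 1 array per time). Red is above the YPA reference, blue below it, and a dot marks a sample channel not above background. Most rows are red at 5.5 h in SPM and paler at 40 min in YPD, AMA1 is dark red on all 4 arrays, and the 5 rows with a dot in every column are pale throughout.

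At 5.5 h in SPM, 33 of the 44 genes were at least 2-fold higher than the reference and 0 were lower, with a median log2 ratio of 2.68 (2.54 with sides below background at their bound). Over the whole array 21.7% of genes were higher and 18.1% lower. The reference differs from the sample in strain, medium and stage. In 11 of the 33 the reference was not above background, so their ratio is only bounded. After the move to YPD the median log2 ratio of the 44 genes stood at 2.32, 1.56 and 1.06 on the 0, 20 and 40 min arrays.

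Relative to 5.5 h in SPM, the 0, 20 and 40 min arrays had 6, 25 and 34 genes at least 2-fold lower, and 0 higher on any of them. Over the whole array 4.12%, 15.8% and 19.8% of genes were lower and 7.58%, 11.5% and 13.9% higher. The median change of the 44 genes was -0.40, -1.19 and -1.90 on the log2 scale, or -0.36, -1.12 and -1.54 with sides below background at their bound. All genes of the array had medians of -0.16, -0.26 and -0.22. At 40 min the measured ratio of 42 of the 44 genes was below its value in SPM. For 28 the ratio was lower on each array than on the one before. No whole-array share was computed for these counts, although the median of all genes was also lower at 40 min, at -0.22. The counts take in genes whose sample channel was not above background, where the sign of a small change is uncertain. The study named many of these genes, among them most APC subunits, CDC20, CDC5, PDS1 and KAR3, as going down when wild-type cells enter YPD, so their direction here is not independent evidence.

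Of the 34 genes counted as lower at 40 min, 22 were above background in Cy5 on both arrays. The other 12 had dropped below background at 40 min, and for 7 of these the bound was at least 2-fold. The Cy3 channel held the same reference RNA on every array and so gives the spread of a level whose RNA did not change. For the 29 genes above background in Cy3 on both arrays, the normalized Cy3 level of the 40 min array was set against that of the SPM array. It differed by 0.07 in the median (log2) and by 0.19 in the median absolute value, and ran from -0.45 to 0.69. At 20 min the range was -1.03 to 1.73 for 27 genes. Genes with a reference not above background in SPM, such as CDC26, CDC27, PDS1, MAM1 and AMA1, are not covered by these values. In Cy5, the 26 genes above background on both arrays had changed by -1.60 in the median at 40 min.

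Genes that were high in SPM fell in general, so the 33 high genes of this group were set beside the other 1318 genes at least 2-fold higher at 5.5 h. Of the 33, 29 (87.9%) were lower by at least 2-fold at 40 min, against 53.0% of the 1318, and the median changes were -2.11 and -1.23. At 20 min the shares were 63.6% and 30.4%. The 33 had started from a higher median log2 ratio, 3.53 against 2.10, the SPM array both picks these genes and is their baseline, and no test was made of the difference between the sets. The remaining 5 of the 34 lower genes, MND2, LRS4, KIP1, KIP2 and NUF2, had not been 2-fold above the reference in SPM.

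**Figure D2:**
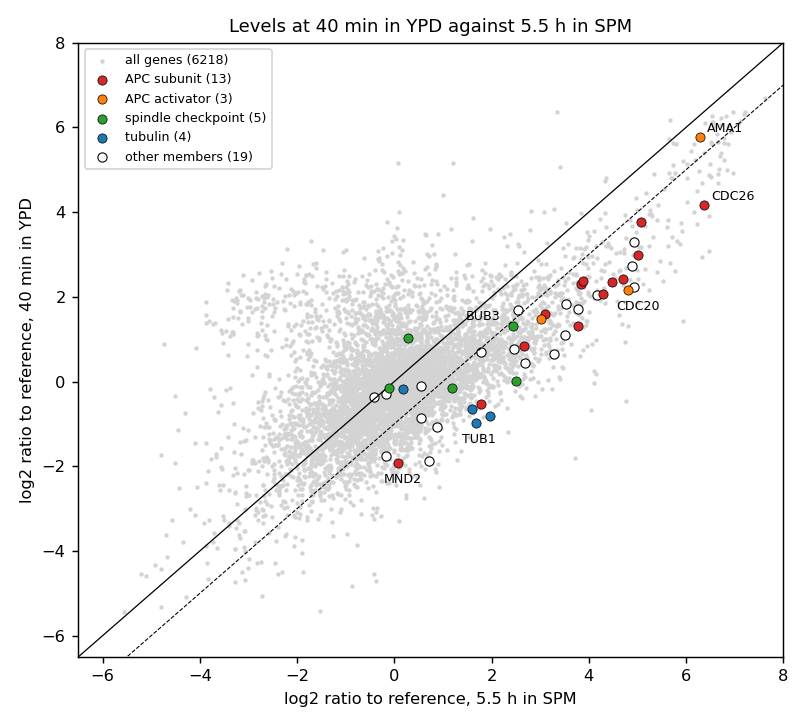
Log2 Cy5/Cy3 at 40 min in YPD (vertical axis) against 5.5 h in SPM (horizontal axis), each point the mean of 2 spots of a gene, gray for all 6218 genes and colored or outlined for the 44. The solid line marks equal levels and the dashed line a 2-fold fall. Most of the 44 lie at the right, below the dashed line, and AMA1 lies between the lines at the upper right.

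All 13 genes of APC subunits were at least 2-fold lower at 40 min by measured ratio, and 12 of them had been higher than the reference in SPM. Their median change was -2.03, or -1.55 with sides below background at their bound, and 10 were above background in Cy5 on both arrays. CDC26 (YFR036W), encoding a small subunit that stabilizes Cdc16, had the highest measured ratio in SPM of the 44 genes, with log2 ratios of 6.38 in SPM and 6.33, 5.21 and 4.17 on the YPD arrays in order of time. It was at least 54.9-fold above the reference in SPM, kept that level at 0 min (-0.05 ± 0.31), and by 40 min was 4.62-fold lower. CDC27 (YBL084C), a subunit of the arm that binds activators, had ratios of 5.08, 5.32, 4.31 and 3.76. Its change at 40 min, -1.32 ± 0.33, was the smallest of the 13, and in the Cy5 channel alone it was -0.70.

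CDC16 and CDC23 encode further subunits of that arm. CDC16 (YKL022C) had log2 ratios of 3.85, 3.50, 2.63 and 2.30 in SPM and then 0, 20 and 40 min into YPD, and CDC23 (YHR166C) 3.88, 3.55, 2.82 and 2.37. Their changes at 40 min were -1.55 ± 0.64 and -1.51 ± 0.07, so that of CDC16 carries the widest spread between spots of the 13 subunits. SWM1 (YDR260C), a subunit first known for a role in spore maturation, had ratios of 4.71, 4.35, 3.38 and 2.41 and was 4.93-fold lower at 40 min. APC9 (YLR102C) had ratios of 3.77, 2.73, 1.99 and 1.32, and with a change of -2.45 ± 0.21 it fell farthest of the 13.

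The catalytic module of the complex consists of the cullin Apc2 and the RING finger protein Apc11. APC2 (YLR127C) had log2 ratios of 3.09, 2.68, 1.80 and 1.60 on the 4 arrays in order of time. APC11 (YDL008W) had ratios of 4.48, 2.50, 3.41 and 2.36, a course that dipped at 0 min and was higher again at 20 min. APC11 was 3.93-fold lower at 0 min (-1.98 ± 0.41), whereas its change at 20 min, -1.07 ± 0.26, did not pass 2-fold in both spots. At 40 min APC11 was 4.35-fold lower and APC2 2.82-fold lower by ratio, whereas in Cy5 alone they had changed by -1.36 and -1.39. The reference channel of APC11 was above background only on the 40 min array, where its Cy3 level was 0.76 higher (log2) than on the SPM array.

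The scaffold genes APC1, APC4 and APC5 were also lower. APC5 (YOR249C) had log2 ratios of 5.02, 4.56, 3.86 and 2.98 in SPM and then 0, 20 and 40 min into YPD. APC4 (YDR118W) had ratios of 4.29, 2.92, 2.91 and 2.07, with a change of -1.38 ± 0.40 already at 0 min and little further change until 20 min. APC1 (YNL172W), encoding the largest subunit, had ratios of 2.67, 1.88, 1.18 and 0.83, and was below background in Cy5 from 20 min on. Its measured change at 40 min was -1.84 ± 0.34, whereas the bound is at least 1.21-fold, so of the 3 only APC4 (4.68-fold) and APC5 (4.10-fold) were 2-fold lower without reliance on dim spots.

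Doc1 helps substrates to bind, and Mnd2 holds the activator Ama1 in check until the meiotic divisions. DOC1 (YGL240W) had log2 ratios of 1.78, 1.20, -0.56 and -0.52 and was at least 1.96-fold lower at 20 min and, by 40 min, at least 1.68-fold. MND2 (YIR025W) was the only subunit gene level with the reference in SPM, at 0.08 ± 0.02, and had ratios of -1.18, -1.82 and -1.94 at 0, 20 and 40 min. It was not above background in Cy5 on any YPD array and was at least 1.07-fold lower at 0 min, and no bound above 1 could be given at 40 min, so its fall rests on dim spots.

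The genes of the 3 APC activators had different courses. CDC20 (YGL116W) had log2 ratios of 4.80, 4.61, 3.02 and 2.16 in SPM and then 0, 20 and 40 min into YPD, and was 6.2-fold lower at 40 min (-2.63 ± 0.18). CDH1 (YGL003C), whose product replaces Cdc20 late in mitosis, had ratios of 3.02, 2.62, 1.99 and 1.49 and was 2.89-fold lower at 40 min. AMA1 (YGR225W), for the activator particular to meiosis, had ratios of 6.28, 6.79, 6.15 and 5.77. AMA1 was at least 48.3-fold above the reference in SPM, its changes were 0.52 ± 0.10, -0.12 ± 0.02 and -0.51 ± 0.06 at the 3 times in YPD, and it did not reach 2-fold at any time. This depended on the scaling, since with loess within each print-tip block AMA1 changed by -1.05 at 40 min, counted as lower, and by -1.04 at 20 min, also counted, while its 40 min change in the authors' value table was 0.0012.

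Set against each other, the change of AMA1 at 40 min exceeded that of CDC20 by 2.12 ± 0.12 and that of CDH1 by 1.02 ± 0.22 on the log2 scale. These pairs were chosen after their values were seen, and the spread is that between spots. With print-tip loess CDC20 changed by -1.84 at 40 min. At 0 min the change of CDH1 minus that of CDC20 was -0.22 ± 0.30, less than the spread, and at 40 min it was 1.10 ± 0.34. In Cy5 alone, which the dim reference channel of AMA1 enters only through the normalization, the change of AMA1 was -0.72 at 40 min, and those of CDH1 and CDC20 were -1.17 and -2.78.

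**Figure D3:**
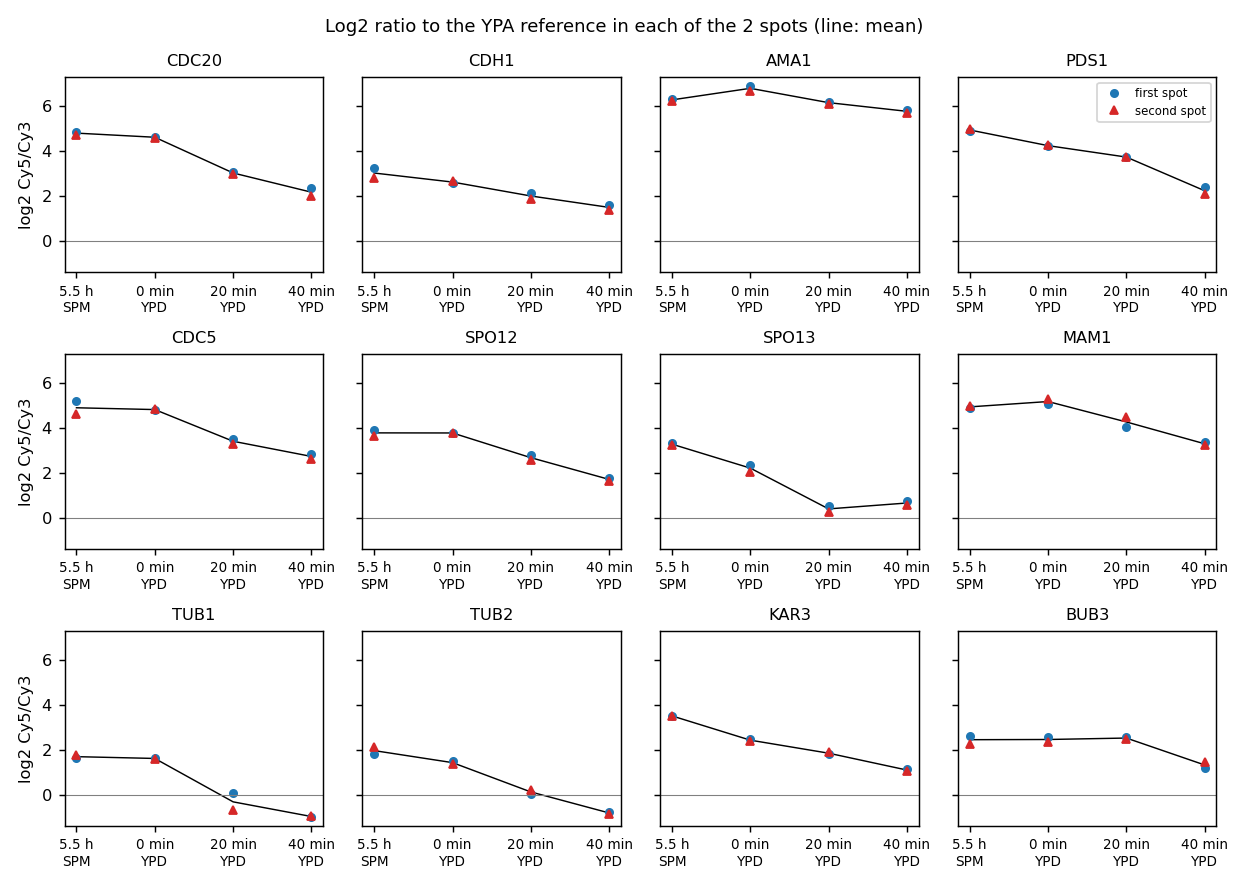
Log2 Cy5/Cy3 of 12 of the genes on the 4 arrays in order of time, with the 2 spots of each gene as separate symbols and their mean as a line. The spots of CDC20, PDS1 and CDC5 lie between 4.60 and 5.19 in SPM and between 1.97 and 2.85 at 40 min, those of AMA1 stay between 5.69 and 6.90, and those of TUB1 and TUB2 end below 0.

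Of the 5 regulators of anaphase and exit, 4 were at least 2-fold lower at 40 min and had been high in SPM. PDS1 (YDR113C), for securin, had log2 ratios of 4.94, 4.24, 3.73 and 2.23. It was 6.54-fold lower at 40 min, and its fall between 20 and 40 min, -1.5, was larger than that in the 20 min before. CDC5 (YMR001C), for the polo kinase, had ratios of 4.90, 4.82, 3.40 and 2.73 and was 4.50-fold lower at 40 min.

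CDC14 (YFR028C), for the phosphatase that reverses phosphorylation by Cdk1, had log2 ratios of 4.16, 3.93, 3.14 and 2.05 on the 4 arrays in order of time. SPO12 (YHR152W), a gene of the network that releases Cdc14 early in anaphase, had ratios of 3.78, 3.77, 2.67 and 1.70. At 0 min CDC5, CDC14 and SPO12 had changed by -0.08 ± 0.44, -0.23 ± 0.47 and -0.00 ± 0.20, less than the spread between spots in each. ESP1 (YGR098C), for separase, was not above background in either channel on any array, with ratios of -0.41 to 0.07, and no fold can be given.

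In the set of monopolin genes and SPO13, 3 of 4 were lower at 40 min by at least 2-fold. SPO13 (YHR014W), needed together with monopolin for the first division, had log2 ratios of 3.28, 2.21, 0.39 and 0.65. Its fall by ratio was 7.39-fold at 20 min and 6.16-fold at 40 min, with a sample channel no longer above background at either time (8.10-fold and 6.96-fold in Cy5 with that side at its bound). MAM1 (YER106W), for the meiosis-specific subunit of monopolin, had ratios of 4.94, 5.17, 4.26 and 3.29, and its changes were 0.24 ± 0.07, -0.67 ± 0.27 and -1.64 ± 0.17 on the YPD arrays in order of time.

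CSM1 (YCR086W) and LRS4 (YDR439W) encode monopolin subunits that also act in the nucleolus of vegetative cells. CSM1 had log2 ratios of 2.54, 2.57, 2.03 and 1.69, was not counted as lower at any time, and had changed by -0.85 ± 0.44 at 40 min, or -0.16 in Cy5 alone. LRS4 stood at 0.55, 0.30, -0.14 and -0.87. By measured ratio LRS4 was 2.67-fold lower at 40 min, but its bound is at least 1.11-fold.

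Among the checkpoint genes, only MAD2 and MAD3 of the 5 passed 2-fold at 40 min, both lower, and the group median was -1.13. MAD3 (YJL013C), for a subunit of the complex that binds Cdc20, had log2 ratios of 2.50, 1.5, 0.75 and 0.02, and was at least 3.58-fold lower at 40 min. MAD2 (YJL030W), whose product also binds Cdc20, had ratios of 1.19, 0.26, 0.39 and -0.15, and was 2.53-fold lower at 40 min by ratio, with a sample channel no longer above background (2.75-fold in Cy5 with that side at its bound).

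BUB3 (YOR026W), for a kinetochore-bound partner of Bub1 and Mad3, behaved otherwise. Its log2 ratios were 2.44, 2.45 and 2.52 in SPM and on the first pair of YPD arrays, and 1.32 at 40 min. The step of BUB3 between 20 and 40 min, -1.20, passed 2-fold in both spots, whereas its change from 5.5 h, -1.13 ± 0.45, did not. In Cy5 alone these were -0.73 and -0.51, and the Cy3 level of BUB3 was 0.47 higher (log2) at 40 min than at 20 min. At 20 min the change of BUB3 exceeded that of MAD3 by 1.83 ± 0.33, a pair chosen after its values were seen. MAD1 (YGL086W), for the anchor of Mad2 at kinetochores, lay between -0.16 and 0.07 on all 4 arrays, and BUB1 was not above background in Cy5 on any array.

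IPL1 (YPL209C), for the Aurora kinase that corrects faulty attachments, had log2 ratios of 2.47, 2.11, 1.32 and 0.77 and was 3.23-fold lower at 40 min. SLI15, for its activating partner, was not above background in Cy5 on any array. ASE1 (YOR058C), which encodes the protein that bundles microtubules at the spindle midzone, had ratios of 2.69, 1.76, 0.93 and 0.43 and was 4.78-fold lower at 40 min by ratio, with a sample channel no longer above background (5.85-fold in Cy5 with that side at its bound).

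All 4 motor genes were at least 2-fold lower at 20 min, and 3 were at 40 min. KAR3 (YPR141C), for a minus-end-directed kinesin, had log2 ratios of 3.51, 2.42, 1.84 and 1.09, was 2.12-fold lower at 0 min and, by 40 min, at least 2.59-fold. The genes of the kinesins that push spindle poles apart were lower in SPM than KAR3 relative to the reference. CIN8 (YEL061C) had ratios of 1.78, 1.40, 0.72 and 0.70, and its changes at 20 and 40 min, -1.05 ± 0.02 and -1.07 ± 0.11, lay close to the 2-fold threshold, which both spots passed only at 20 min. KIP1 (YBL063W) had ratios of 0.72, -0.26, -0.92 and -1.88 and was at least 2.22-fold lower at 40 min. Its sample channel was below background at 20 and 40 min. Between these arrays its ratio changed by -0.96, with 0.06 in Cy5 alone and 1.01 in Cy3.

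KIP2 (YPL155C), for a kinesin of cytoplasmic microtubules, had log2 ratios of -0.17, -1.33, -1.93 and -1.75. It was above background in Cy5 on all 4 arrays. By ratio it was 2.24-fold, 3.40-fold and 2.99-fold lower at 0, 20 and 40 min, with no further fall after 20 min. In Cy5 alone its change was -2.03 at 20 min and -1.41 at 40 min. With loess within each print-tip block its fall at 40 min was smaller and was not counted. At 40 min KIP2 was 3.36-fold below the YPA reference. KIP1 and MND2 also lay at least 2-fold below it by measured ratio, but with the sample not above background (at least 1.33-fold for KIP1 and no bound for MND2).

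The alpha- and beta-tubulin genes, which build microtubules, were all at least 2-fold lower at 20 and at 40 min. TUB2 (YFL037W), the single beta-tubulin gene, had log2 ratios of 1.96, 1.42, 0.12 and -0.82 and was 6.87-fold lower at 40 min, the largest fall of the 44 by measured ratio. TUB1 (YML085C), the major alpha-tubulin gene, had ratios of 1.69, 1.61, -0.33 and -0.98. It was level with SPM at 0 min (-0.08 ± 0.13), then 4.04-fold lower at 20 min and by 40 min 6.36-fold lower.

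TUB3 (YML124C), the minor alpha-tubulin gene, had log2 ratios of 1.59, 0.67, -0.35 and -0.65 and was at least 3.89-fold lower at 40 min. TUB1 and TUB3 are close in sequence, and the printed PCR products may not separate their transcripts, so each is uncertain. TUB3 also overlaps an annotated antisense RNA by 120 bases, and the double-stranded probes do not resolve strand. TUB4, for the gamma-tubulin of spindle poles, was not above background in Cy5 on any array, with ratios of -0.62 to 0.17.

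Among the 3 kinetochore genes, NDC80 (YIL144W), after which the outer kinetochore complex is named, had log2 ratios of 3.53, 3.14, 2.31 and 1.82 and was 3.27-fold lower at 40 min. NUF2 (YOL069W), which encodes the partner of Ndc80 in the complex that grips microtubules, had ratios of 0.89, 0.47, -1.67 and -1.08. Its 20 min value carries a spread of ± 0.59 between spots, and its Cy3 level was 1.73 higher (log2) on that array than on the SPM array although the reference RNA was the same. In Cy5 alone the change of NUF2 was -0.83 at 20 min, and at 40 min NUF2 was at least 1.16-fold lower. DAM1, of the ring that couples kinetochores to microtubules, was not above background in Cy5 on any array.

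**Figure D4:**
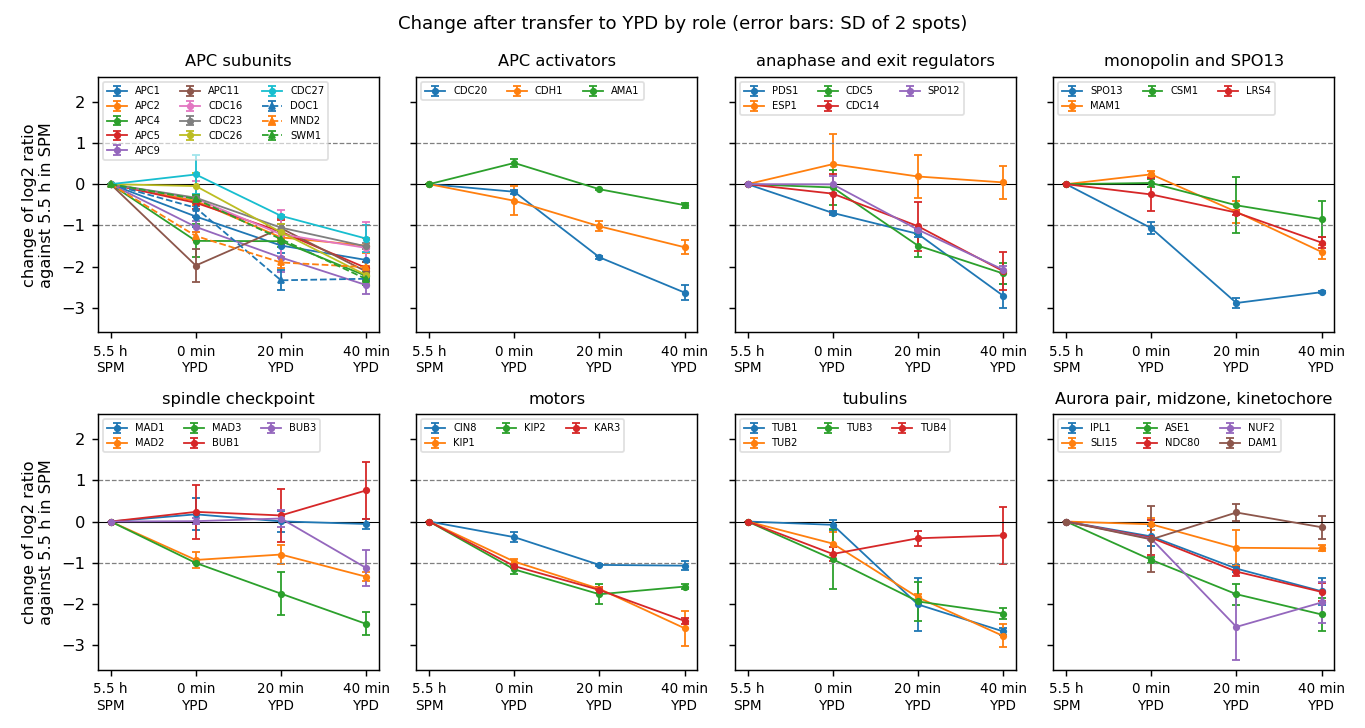
Change of log2 Cy5/Cy3 against 5.5 h in SPM at 0, 20 and 40 min in YPD, with 1 panel per role (the last joins 3 small groups), a line per gene and bars for the SD of the 2 spots. Dashed lines mark 2-fold. The 13 APC subunits all end below the lower dashed line, AMA1, ESP1, CSM1, MAD1, BUB1, SLI15, TUB4 and DAM1 end above it, and TUB1 and SPO12 leave 0 only after the 0 min array.

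The measured timing of the falls varied between genes, and differences between roles were not tested. Over the 34 genes lower at 40 min, the change at 0 min was 24.0% of that at 40 min in the median and the change at 20 min 68.2%, and 30 of the 34 had reached 50% or more by 20 min. APC subunits had made 69.9% of their change by 20 min in the median and tubulins 75.5%, and the regulators of anaphase and exit 50.8%. The shares of single genes overlapped, at 50.4% to 101.6% for APC subunits and 44.6% to 68.8% for these regulators. Of the 34 genes, 22 were above background in Cy5 on both the 40 min and SPM arrays. Their medians were 21.6% and 66.5%, with 60.2% for 10 APC subunits and 70.9% for TUB1 and TUB2. Below 50% at 20 min among these 22 were MAM1 (40.9%), PDS1 (44.6%) and CDC14 (48.3%). The share of CDC14 sets -1.02 ± 0.59 against -2.11 ± 0.47, so the spread between its spots does not separate it from 50%. These shares come from single arrays, and both arrays of a share are set against the same SPM array.

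Steps between adjacent YPD arrays do not use the SPM array. Between 0 and 20 min, 8 genes were at least 2-fold lower and 0 higher, against 7.5% and 6.2% of the whole array. Above background on both arrays were CDC26, CDC20, CDC5, TUB1 and TUB2. The others were SPO13 and DOC1, no longer above background at 20 min (DOC1 at least 1.14-fold lower), and NUF2, not above background at 0 min, whose Cy5 level alone changed by -0.48 while its Cy3 level was 1.66 higher (log2) on the 20 min array. From 20 to 40 min 4 were lower and 0 higher, against 1.58% and 4.05%, and these were CDC26, PDS1, CDC14 and BUB3 (-0.73 in Cy5 alone). CDC26 was thus the one gene with a 2-fold fall by ratio in both steps, which in Cy5 alone were -0.72 and -1.19.

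The 6 genes already lower at 0 min were APC4, APC11, MND2, MAD3, KIP2 and KAR3. MAD3, at -1.01 ± 0.01, and KAR3, at -1.08 ± 0.05, were close to the threshold, and in Cy5 alone the change of KAR3 was -0.41. This count depended on the scaling, since scaling by the array median left 2 genes lower, against 6. Under that scaling 2.67% of all genes were lower. The 20 min count of 25 became 17 when the median change of all genes was set to 0, with 10.1% of all genes lower.

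At 40 min in YPD, 22 of the 44 genes were still at least 2-fold above the YPA reference and 3 were below it, against 19.7% and 17.7% of the whole array. All 22 had been above it in SPM, and 1 of them, KAR3, was no longer above background in Cy5. By measured ratio the farthest above were AMA1, CDC26 and CDC27, with a reference not above background, so that they were at least 27.3-fold, 11.6-fold and 9.63-fold higher. Of the 13 APC subunits, 10 were among the 22.

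Genes that work with the 44 were examined in 7 further lists, from which 4 genes were not found among the ORFs of the array. Their counts stand beside the whole-array shares at 40 min given above, 19.8% lower and 13.9% higher. Of 33 other kinetochore subunits on the array, 8 were lower by at least 2-fold at 40 min and 1 higher, with a median change of -0.50. SPC19 of the Dam1 ring, SPC25 of the Ndc80 complex and OKP1 of the inner kinetochore were the lowest by measured ratio (at least 1.86-fold, 2.37-fold and 2.47-fold by their bounds), and MCM16 was at least 6.43-fold higher. All 8 lower genes had dropped below background at 40 min. Of 17 spindle pole body genes 8 were lower and 0 higher, among them KAR1 (-3.09 ± 0.17), MPS2 (at least 3.72-fold) and SPC97 (at least 1.64-fold).

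Of 13 genes of APC ubiquitin-conjugating enzymes, substrates and inhibitors, 8 were lower and 1 higher at 40 min, with a median of -1.34. The B-type cyclin genes CLB6, CLB4 and CLB5 changed by -2.82 ± 0.11, -2.76 ± 0.05 and -2.60 ± 0.06, whereas UBC4, for a ubiquitin-conjugating enzyme, was at least 2.13-fold higher. Of 10 passenger, checkpoint and cohesion protection partners 5 were lower and 0 higher, and SGO1, for shugoshin, changed by -2.01 ± 0.25, the checkpoint kinase gene MPS1 by -2.00 ± 0.05 and GLC7 by -1.28 ± 0.10.

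The other 3 lists were mixed. Of 14 genes of the mitotic exit network 5 were lower and 2 higher at 40 min. MOB1 changed by -1.69 ± 0.01 and CDC15 was at least 1.43-fold lower, while BNS1 measured -2.15 ± 0.19 from spots below background on both arrays, and NET1, for the nucleolar anchor of Cdc14, and SIC1, for a Cdk inhibitor, were at least 3.06-fold and 1.74-fold higher. Of 19 other motors and microtubule proteins 5 were lower and 1 higher. PAC11 changed by -1.71 ± 0.37, CIK1, for the partner of Kar3, was at least 1.77-fold lower and DYN3 at least 2.47-fold lower, and DYN1, for the dynein heavy chain, was at least 7.65-fold higher. Of 13 genes of tubulin folding and prefoldin 5 were lower and 2 higher. CIN1 and GIM5, lower by measured ratio, were at least 1.51-fold and 1.52-fold lower by their bounds, the prefoldin gene PFD1 was at least 4.36-fold higher, and PAC10 measured 1.74 ± 0.57 from spots below background.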

How the data were processed

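Total RNA of 4 samples was hybridized to 2-color arrays of PCR products, each beside the same YPA reference. The authors scanned the slides and quantified them with QuantArray (version 3), and the deposited scanner files hold spot and local background intensity on a linear scale, not normalized. The authors also deposited log2 ratios (sample over reference) in a value table, made after background subtraction, a floor at the mean of the buffer spots, centering on the array median and removal of poor spots; its genes were linked to the array through the platform annotation. The labeling text names the dyes in the opposite order to the dye fields and file headers. The authors' steps, repeated here, correlated with their table at r = 0.994 to 0.998 over 5506 to 5510 genes with the same sign, so Cy5 was taken as the sample. The build behind the probes is not given in the sources used here.

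Intensities were corrected with normexp (offset 50) in limma 3.58.1 (R 4.3.3), normalized by global loess with 236 buffer and 384 Arabidopsis spots at weight 0, and centered on the gene spots. Bounds used loess and Aquantile channel values. On the 0 min array 17 spots of other genes carried a flag and were left out. Of 6218 ORFs, 5663 matched a locus tag of RefSeq assembly R64, used for names and overlaps only. The calculations were tested on simulated data with known changes. There the rule that both spots pass 2-fold missed part of the smaller changes, a first criterion for passing was not met, and it was eased after that result. All 44 genes are named. From each further list the 3 largest changes at 40 min in each direction are named, among genes past 2-fold in both spots. A gene that this rule would name is not reported here. The genes and lists were chosen with earlier results of these data known. There were no replicate arrays, so depth is read from signal over background. Settings tried were other normalizations and background corrections, the authors' table, single spots, filters on dim spots, bounds, a 1.5-fold threshold and centering of changes, and, added after the data were seen, the Cy5 channel alone and the same settings for the further lists.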

Additional observations from a re-analysis of the deposited data

How the results depend on the processing

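No change counted as 2-fold, of the 44 genes or of the further lists at 40 min, turned its sign under any setting tried. Smaller changes did: CDC14 at 0 min was 0.25 in Cy5 alone against -0.23, DAM1 at 20 min -1.01 against 0.22, and AMA1 at 0 min -0.02 with print-tip loess against 0.52. With that loess AMA1 was counted as lower at 20 min (-1.04) and 40 min (-1.05), and in the authors' table its 40 min change was 0.0012, against -0.51. The number of the 44 genes at least 2-fold lower at 40 min was 34 and ran from 29 to 37 over the settings, except for 11 among the 13 genes whose 2 channels were above background on every array. Over the settings 14.9% to 32.4% of all genes were lower at 40 min. Among these 13 genes 12 exceeded the reference in SPM (against 33), 10 were lower at 20 min (against 25) and 1 at 0 min (against 6). Of all genes passing this filter the shares were 29.3%, 21.1% and 3.07%, and 25.1% were lower at 40 min. The filter's construction, fewer genes tested, lowers each count. The count at 0 min was the least stable. It was 2 after scaling by the array median, 2 without background correction and 2 with changes centered on the median of all genes. Under these settings 2.67%, 2.00% and 2.38% of all genes were lower. It was 12 with the second spot alone and 14 at a 1.5-fold threshold, against 7.89% and 14.9% of all genes. One direction gained a gene. At 0 min 1 was higher by the first spot alone and at 40 min 1 by the second spot alone. Of all genes 9.97% and 16.2% were higher under these settings. For these counts the cause was not tested. The median change of the 44 genes ran from -0.43 to -0.16 at 0 min, from -1.23 to -0.93 at 20 min and from -1.93 to -1.54 at 40 min. Of 418 values of single genes at 40 min under the alternatives, 397 still passed and 21 did not. Those 21 were of APC1, CDC14, CDC16, CDC23, CDC27, DOC1, KIP2, LRS4, MAM1 and NUF2, such as MAM1 at -0.79 and CDC23 at -0.88 in the authors' value table and KIP2 at -0.62 with loess within print-tip blocks. MND2 had no value at its bound. Of 618 values of genes of the further lists at 40 min, 553 still passed and 65 did not. At 20 min 42 of 310 did not pass and at 0 min 23 of 73. No paired analysis was possible because each group has 1 array. Signal over background limits the 5 genes below it throughout and the 12 falls that end below it at 40 min, and 1 array per group limits every value.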
